A study of Mus musculus with 6 samples.

Results

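The 3p arms of mouse miR-6896 to miR-7094 are the 3′ strands of a block of consecutively numbered hairpins. They were taken by name, as every mouse miRNA on the array in that range of numbers whose name ends in -3p, with or without a letter suffix, which gave 199 of the 1881 miRNAs measured. A hairpin precursor yields a 5p and a 3p strand, and usually 1 of the strands is loaded into an Argonaute protein and kept while the other is degraded. In a mirtron the hairpin is a short intron that the spliceosome releases, so its 3p strand ends where the intron ends, in the letters AG, after a stretch rich in C and U. Such miRNAs are generally scarce.

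The arrays measured miRNAs in exosomes, small vesicles that cells release, from RAW 264.7, a virus-transformed mouse macrophage line. Exosomes were taken by size exclusion from the supernatant of 3 control samples, of cells labelled normal, and of 3 samples of cells given 2 µg/mL lipopolysaccharide (LPS, the outer membrane glycolipid of Gram-negative bacteria, sensed by TLR4) for 72 h. The time in culture of the controls is not stated separately. Each sample was hybridised to 1 one-colour Agilent mouse miRNA array. The labels do not say whether replicates came from separate cultures, so the spread behind each p-value is that among these samples and may be technical.

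Most members ended in AG after a stretch rich in C and U. RefSeq's table (build GRCm38.p6) held a mature sequence for 175 of the 199, of which 136 (77.7%) ended in AG and 118 in CAG, against 255 of 1608 matched miRNAs on the whole array (15.9%) ending in AG. C and U together made up a median of 72.0% of their bases and the longest uninterrupted run of C and U had a median of 8 bases. In the 5p arms of the same numbers the C and U share had a median of 31.8%, G had a median of 43.5% against 14.3% in the 3p arms, and 12 of 177 ended in AG. By RefSeq's gene annotation, 174 of the 175 hairpins lay within the span of a protein-coding gene. No such share was taken for other miRNAs, and lying within a gene's span does not show that a hairpin is an intron. The mature sequences of the 1 detected member, its 5p partner, and the members with the next brightest probes are shown because the results below turn on them, with the seed (bases 2 to 8 from the 5′ end, the stretch that pairs with target mRNAs) in capitals.
miR-6948-3p: uGUCCUUCcugucugaccaca
miR-6948-5p: aGUUCAGAcaggacugugacac
miR-7061-3p: uAUCCCUUuuauuuccuuuuag
miR-7092-3p: uGUUCUUUguuuuguuugccuuag
miR-7078-3p: uACUUUUUuuaucauccacag
miR-6984-3p: uACUUUCUuuccugucuuucu
miR-7080-3p: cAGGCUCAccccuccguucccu
miR-7047-3p: uCACCCUCacccuuccuccuucc
The detected member, miR-6948-3p, ends in CA and is 1 of the 39 matched members that do not end in AG. Its C and U share of 71.4% sits in the middle of the group, with 70 members lower and 88 higher. miR-7061-3p, miR-7092-3p and miR-7078-3p end in AG, and miR-7047-3p has the highest C and U share of any matched 3p arm of the block, 91.3%, and holds no G.

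The seeds of these 3p arms are nearly all different. The 175 matched members held 168 seeds, and 6 of these occurred in more than 1 member. The largest group, CACCCUG, had 3 members, shown here because they share the seed and differ downstream of it, and each ends in AG.
miR-7018-3p: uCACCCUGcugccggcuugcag
miR-7023-3p: uCACCCUGucugcgccccucag
miR-7068-3p: uCACCCUGgacugacucucag
None of the 3 was detected on any array. The seed of miR-6948-3p, GUCCUUC, occurred in 1 other miRNA, miR-7117-3p, which was detected on 0 of 6 arrays. Only 4 members shared a seed with a miRNA from outside the block that was detected on some array: miR-6985-3p with miR-673-5p, miR-7061-3p with miR-188-5p, miR-7069-3p with miR-18a-3p, and miR-7073-3p with miR-6365.

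Only 1 of the 199 3p arms was detected in these exosomes, and it was the same one on all 6 arrays. Detection is the scanner software's flag, which in these files was set when a probe of the miRNA exceeded 3 times its error. The control arrays detected 1, 1 and 1 member and the LPS arrays 1, 1 and 1, all miR-6948-3p (exact permutation p = 1 for LPS against control). The other 198 were detected on no array. Detection of miRNAs in all went from 219 ± 8.14 on the control arrays to 428 ± 17.1 on the LPS arrays (SD, n = 3), a difference at the smallest p that 3 against 3 samples allow (two-sided exact permutation p = 0.1). The number of detected 3p arms of the block was 1 in both groups.

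The share detected was lower among these 3p arms than in each list it was set against. Among the 201 5p arms of the same numbers the control arrays detected 40, 41 and 38 and the LPS arrays 69, 60 and 60. Among the 211 other 3p arms numbered 1000 or above the control arrays detected 7, 8 and 7 and the LPS arrays 30, 27 and 23. Among the 374 3p arms numbered below 1000, which include the long-known miRNAs, the control arrays detected 45, 48 and 46 and the LPS arrays 102, 101 and 98. The 3p arms of the block stood at 0.503% on every array, below each of those lists on 6 of 6 arrays. The mean difference was −25.0 percentage points from the 5p arms (SD 6.58, n = 6 arrays), −7.55 from the other late 3p arms (SD 5.13) and −19.1 from the early 3p arms (SD 7.92). These differences are a description of fixed lists on the same arrays, with no test.

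**Figure D1:**
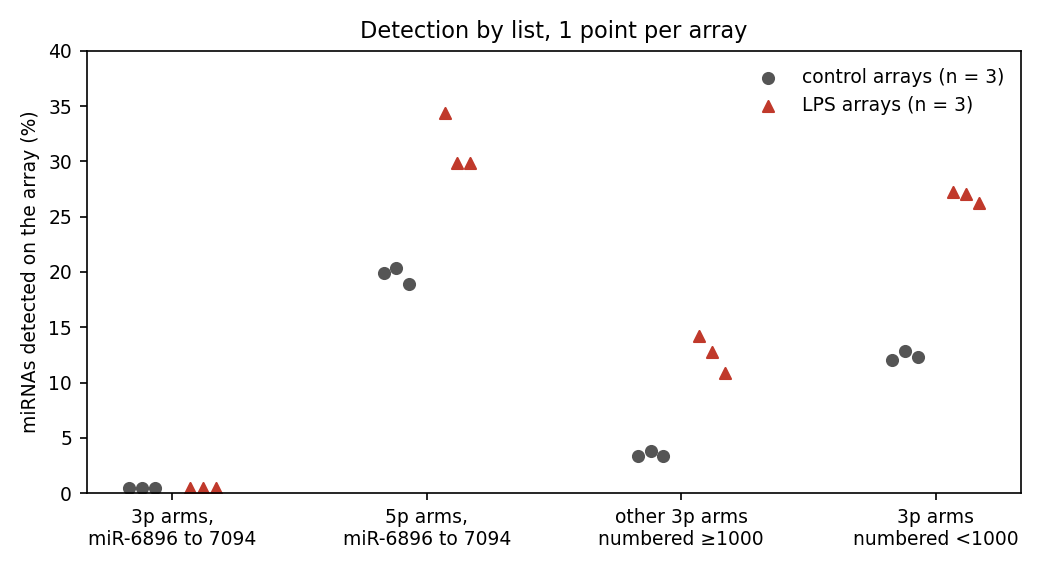
Share of each list detected, in percent of its miRNAs, with 1 point per array (grey circles, 3 control arrays; red triangles, 3 LPS arrays). The 3p arms of miR-6896 to miR-7094 sit at 0.503% on all 6 arrays, while their 5p arms lie between 18.9% and 34.3% and are higher on the LPS arrays.

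Hairpin by hairpin, the detected strand was the 5p arm in all cases but 1. Of 198 hairpins with both arms on the array, 72 had a 5p arm detected on at least 1 array and no detected 3p arm, and 35 of these had the 5p arm on all 6 arrays. For 1 hairpin, miR-6948, the 3p arm was detected and the 5p arm was not. No hairpin had both arms detected and 125 had neither. The signal of miR-6948-5p was −5.96, −5.71 and −1.65 on the control arrays and −2.52, −6.13 and −5.07 on the LPS arrays, at or under the subtracted background on all 6. The miR-7047 hairpin gave the opposite picture. Its 5p arm read 512, 607 and 568 in control and 4413, 4625 and 4684 in LPS, while its 3p arm was undetected on all 6. After each array was divided by its own level of detected miRNAs, miR-7047-5p rose by 0.80 on the log2 scale (SE 0.05, adjusted p = 6.59e-06 by limma and Benjamini-Hochberg), near the median of 0.77 for miRNAs found on all arrays. The 5p arm of miR-6984, whose hairpin lies within Mrpl21, a mitochondrial ribosomal protein gene, read 282, 319 and 322 in control and 456, 561 and 548 in LPS. Those readings do not overlap and are higher in LPS, yet after scaling to the 4.67-fold brighter LPS arrays miR-6984-5p fell by 1.47 on the log2 scale (SE 0.04, adjusted p = 1.58e-07 by limma and Benjamini-Hochberg).

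Detection differed with base composition across the array. Among matched miRNAs that are neither 3p nor 5p arms of the block, 18 of 178 (10.1%) with a C and U share of at least 65% were detected on some array, against 314 of 1078 (29.1%) of those with less. Members with a share of at least 65% numbered 144, of which 1 (0.694%) was detected, and none of the 31 with less was. The nearest counterparts by arm and C and U share, other 3p arms numbered 1000 or above, gave 2 of 63 (3.17%), and 3p arms numbered below 1000 gave 9 of 40 (22.5%). Of members ending in AG 0 of 136 were detected. Other 3p arms ending in AG gave 6 of 36 (16.7%) among those numbered 1000 or above and 3 of 20 (15%) among those numbered below 1000, and all miRNAs outside both arms of the block gave 37 of 107 (34.6%). In the 5p arms of the block the 31 matched miRNAs detected on all 6 arrays had a median G share of 50% and the 113 detected on none had 43.5%. These shares are descriptions over miRNAs that share arrays and probe design, and the part of probe chemistry in them was not tested.

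**Figure D2:**
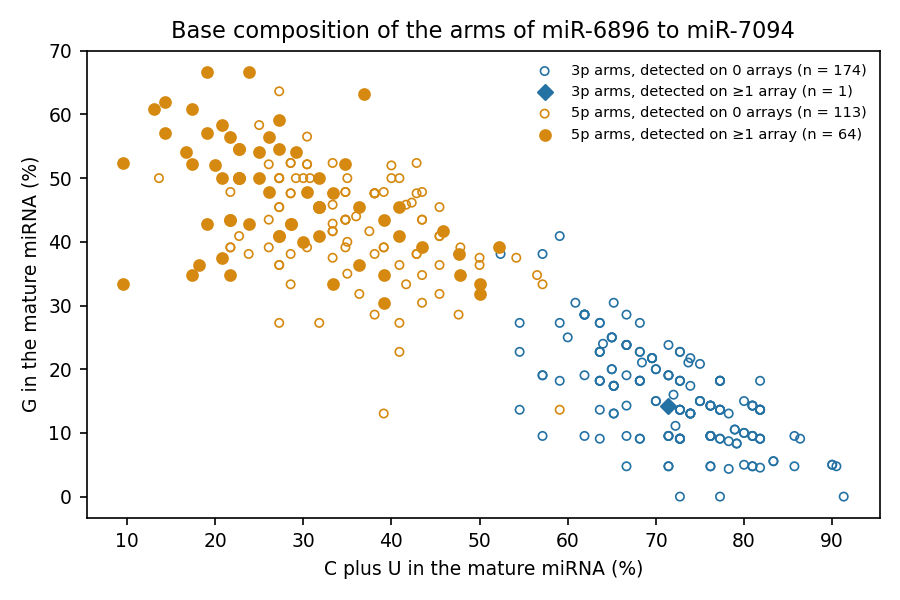
Base composition of the mature miRNAs of the block, with the percent of C plus U on the horizontal axis and the percent of G on the vertical axis; filled symbols were detected on at least 1 array and open symbols on none. The 3p arms (blue, 175 matched) and the 5p arms (orange, 177 matched) form clouds that overlap at their edges. C plus U runs from 47.6% to 91.3% in the 3p arms and from 9.52% to 59.1% in the 5p arms. The single filled 3p arm, miR-6948-3p, lies inside the 3p cloud at 71.4% C plus U and 14.3% G.

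The 198 undetected 3p arms read as background in both groups. Their processed signal, the background-subtracted intensity on a linear scale, had a median of 0.778, −0.00459 and 0.647 on the control arrays and 0.258, −0.0305 and −1.42 on the LPS arrays, so the groups overlap. These medians averaged 0.474 ± 0.419 over the control arrays and −0.399 ± 0.899 over the LPS arrays (SD, n = 3; two-sided exact permutation p = 0.2). The 1091 miRNAs outside both arms of the block that were detected on no array had medians of 0.453 ± 0.441 in control and 0.244 ± 1.16 in LPS (SD, n = 3). The 7 negative-control probes lay higher, with medians of 15.7 ± 3.37 and 13.6 ± 3.44. The highest reading of any undetected member was 20.5, for miR-7080-3p on LPS 2, and the lowest was −12.0, for miR-6909-3p. Of the 198, 68 were below 0 and 60 above 0 on every array. Signal alone did not separate them from detected miRNAs on every array. The lowest signal of a detected miRNA was 4.96 on control 2, 2.45 on control 3 and 18.3 on LPS 2. There 25, 61 and 2 of the undetected members read above it, against 0 on control 1, LPS 1 and LPS 3.

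**Figure D3:**
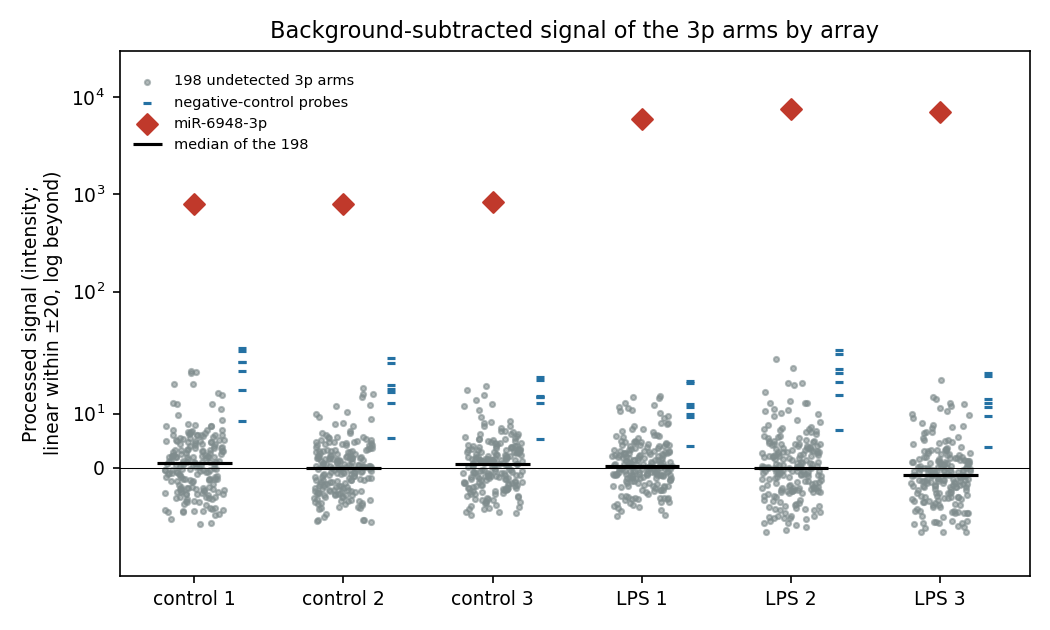
Background-subtracted signal of the 3p arms on each array; the vertical axis is linear near 0 and logarithmic above. Grey points are the 198 undetected members with their median as a black bar, blue dashes are the 7 negative-control probes, and red diamonds are miR-6948-3p, at 799 to 838 in control and 6016 to 7636 in LPS; no grey point exceeds 20.5.

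Of the 198 undetected members, 51 (25.8%) had groups that did not overlap in signal, 17 higher and 34 lower in LPS. Over all 1417 miRNAs detected on no array the share was 28.7%, with 13.8% higher and 14.9% lower, so the members' share is near the background. The members with the highest probe signals after miR-6948-3p, named by rule, were all within background. miR-7061-3p, from a hairpin within Plekha1, a gene for a phosphoinositide-binding adaptor, read 17.6, 14.8 and 14.4 in control and 13.3, 18.5 and 13.1 in LPS. Its group means were 15.6 ± 1.77 and 14.97 ± 3.06 (SD, n = 3; exact permutation p = 0.6). miR-7092-3p, within Fam50a, had means of 15.4 ± 1.96 and 12.6 ± 2.53 (exact permutation p = 0.3). The groups overlapped for both. miR-7078-3p, within Cmip, had 14.4 ± 3.16 and 11.5 ± 2.20 (exact permutation p = 0.3), and miR-6984-3p had 13.3 ± 2.06 and 11.5 ± 3.66 (exact permutation p = 0.6). For miR-7080-3p, within the copine gene Cpne7, the means were 13.0 ± 1.25 in control and 16.5 ± 3.87 in LPS (exact permutation p = 0.3). miR-7047-3p had 9.03 ± 3.91 in control and 12.7 ± 2.73 in LPS (exact permutation p = 0.3). Each of these 6 members was under the detection limit on all 6 arrays, so no fold change is given.

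Few undetected members came close to the limit of 3 errors. The nearest was miR-7080-3p at 2.64 errors on LPS 2, followed by miR-7061-3p at 2.52, miR-7078-3p at 2.51 and miR-7092-3p at 2.45, these 3 on control 1. In all 8 of the 198 exceeded 2 errors on some array, and the median over members of the highest ratio on any array was 0.313. miR-6948-3p reached 9.94 to 9.98 errors.

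Single bright spots did occur among the other members, and the software had marked all of them as outliers. A member has 2 or 3 probes (183 and 16 members) of 11 to 21 bases, each printed as 10 or 15 spots, which gives 5970 spots per array. Over the 6 arrays 31 of 35640 spots of the 198 other members were well above background, in 28 members, and 31 of the 31 were flagged as outliers. LPS 1 held 15 of them and the other arrays 1 to 5. The brightest, 6514 on control 1, belonged to a probe of miR-7067-3p whose other 13 unflagged spots on that array reached no more than 10.6. With outlier spots left out, no member other than miR-6948-3p had a spot well above background.

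miR-6948-3p was detected on every array and its signal was higher in LPS. Its hairpin lies within Acin1, a gene for an RNA-binding protein of splicing and exon junction complexes. Its brighter probe, of 15 bases, read 801, 799 and 838 in control and 6016, 7636 and 6955 in LPS. All LPS values exceed all control values, and the means of 812 ± 22.0 and 6869 ± 813 (SD, n = 3) differ 8.45-fold (two-sided exact permutation p = 0.1, the smallest possible).

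The 16-base probe of the same miRNA gave the same direction at a much lower signal. It read 41.9, 45.2 and 48.1 in control and 408, 502 and 475 in LPS, a 10.2-fold difference of the means (exact permutation p = 0.1). Its means of 45.1 in control and 462 in LPS stand against 812 and 6869 for the 15-base probe, whose bases it holds in full. The reason for that gap was not tested, and the scaled values and signal share below use the 15-base probe. The probes read the 3′ end of the miRNA, from base 7 to 21 and from base 6 to 21, and are printed here because the whole of the block's detected signal came through them.
15-base probe: tgtggtcagacagga
16-base probe: tgtggtcagacaggaa
Their target differs from every other matched miRNA on the array: the longest stretch it shares with any is 10 bases, with miR-7683-5p, which was detected on 0 of 6 arrays. Binding of other RNAs was not tested. The files give no genome position for these probes, nor for 412 of the block's 414; the exceptions are the 2 probes of miR-7036a-3p, at chr5:137296678-137296688 and chr5:137296677-137296688 in mm9.

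At the 75th percentile, miRNAs detected on all 6 arrays were brighter on the LPS arrays. After scaling of the processed signal the rise of miR-6948-3p was near the median rise. With 3 other signals, given below, it stood further above. Over the 198 miRNAs found on all 6 arrays, the 75th percentile of signal averaged 477 ± 41.0 on control and 2229 ± 180 on LPS arrays (SD, n = 3), 4.67-fold apart. The spiked-in RNAs did not share that difference, with a geometric mean of 2707 ± 83.9 on control and 2377 ± 181 on LPS arrays. The fraction of each spot that the software used was 0.6 on the control arrays and 0.812 to 0.829 on the LPS arrays, and its part in the signal was not tested. After division of each array by its 75th percentile, the log2 signal of miR-6948-3p was 10.90, 10.65 and 10.78 in control and 11.58, 11.71 and 11.59 in LPS. The difference was 0.85 (SE 0.08), or 1.80-fold, with an adjusted p of 4.38e-05 by limma and Benjamini-Hochberg over 412 miRNAs, with 3 of 3 LPS samples above every control. It was thus the 1 member tested and the 1 called, where 92.2% of all tested miRNAs were called, 65.5% higher and 26.7% lower. Of the 198 miRNAs detected on all arrays 91 had a larger change and 106 a smaller one, with a median of 0.77, and miR-6948-3p stood 0.082 above that median. Before scaling its log2 change was 3.07 against a median of 2.99, and with scaling to the spiked-in RNAs 3.26 against 3.18. Both repeat the distance of 0.082, because 1 factor per array shifts the miRNA and the median alike, and are no separate comparison. With normexp background correction the change of miR-6948-3p was 0.89 against a median of 0.11. That setting adds an offset of 50 to each spot before scaling. The offset is divided by a larger factor on the LPS arrays, which lowers the change of dim miRNAs and can lower the median by construction. With the files' own total signal per miRNA it was 1.19 against 0.34. In the authors' deposited values miR-6948-3p stood 0.58 above a median of 0.53. Its distance from the middle miRNA was thus larger with those signals. Without the detection filter 1 member, miR-6948-3p, was called higher and 11 were called lower, where 13.6% of all 1881 miRNAs were called higher and 14.3% lower (27.9% in all). In the authors' value table without the filter 10 members were called higher and 48 lower, where 23.6% of all miRNAs were called higher and 28.4% lower (52% in all). Apart from miR-6948-3p, none of the members called without the filter was detected on any array.

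**Figure D4:**
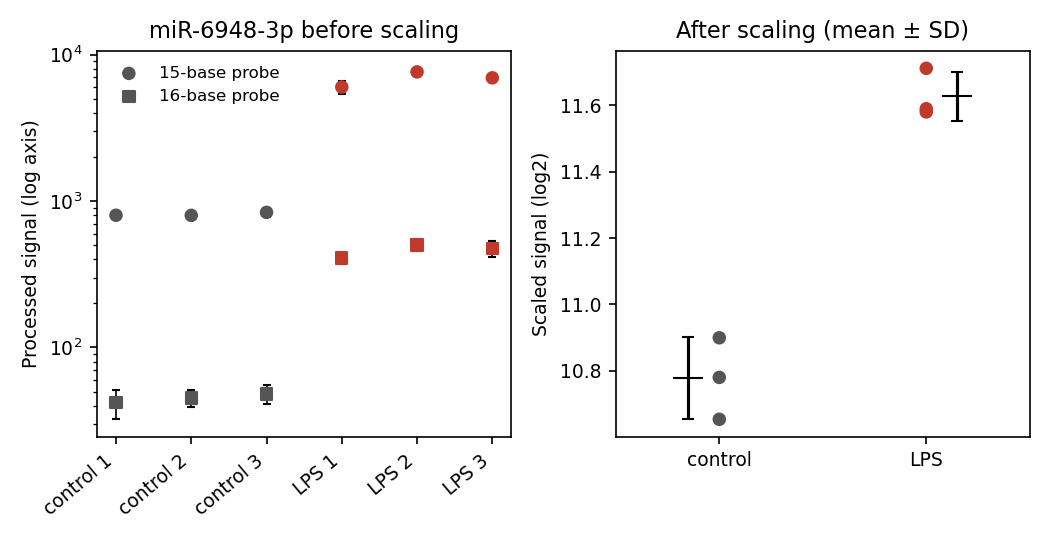
Signal of miR-6948-3p on each array. Left, processed signal of its 15-base probe (circles) and 16-base probe (squares) on a log axis, with bars for the SD over the spots used; right, the scaled log2 signal of the brighter probe by group, with mean ± SD (n = 3). Control arrays are grey and LPS arrays red; the groups do not overlap in either panel.

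As a share of all detected signal, the 3p arms of the block amounted to about a hundredth, all of it miR-6948-3p. The share was 0.795%, 0.691% and 0.756% on the control arrays and 1.01%, 1.11% and 1.02% on the LPS arrays. The means were 0.747% ± 0.0526 and 1.05% ± 0.0582 (SD, n = 3; two-sided exact permutation p = 0.1), and the groups did not overlap.

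**Figure D5:**
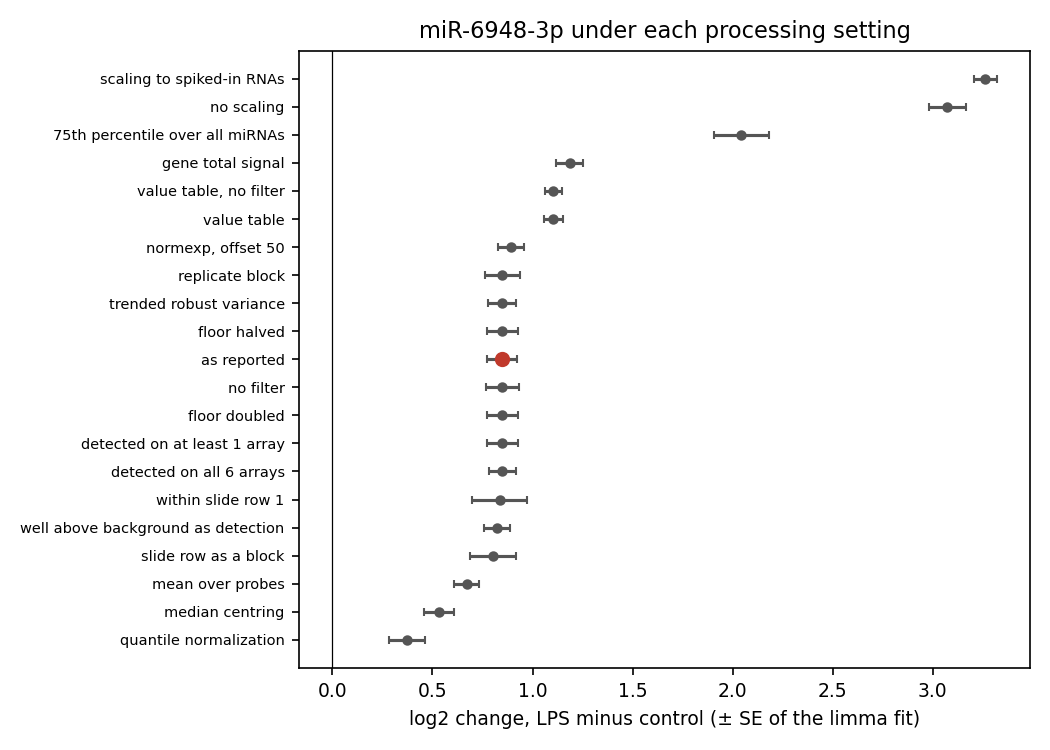
Change of miR-6948-3p in log2 units, LPS minus control, under each processing setting other than those that leave out an array; points are the fitted change and bars its SE, with the reported setting in red. Every setting lies above 0, from 0.37 with quantile normalization to 3.26 with scaling to spiked-in RNAs.

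Most miRNAs listed as markers of the labelled line were detected on the arrays. The macrophage list held the myeloid miRNAs miR-223-3p and miR-142a-3p, with miR-142a-5p, miR-155-5p, miR-146a-5p, miR-21a-5p and miR-16-5p. Whether the whole list is particular to macrophages was not tested. All 7 were detected on the 3 LPS arrays and 6 of the 7 on the 3 control arrays. Their summed signal ran from 5429 to 6574 in control and from 63213 to 80903 in LPS. Of the erythroid and serum markers 4 of 5 on the array were detected nowhere, including miR-451a, and 1 was detected on all LPS arrays; their summed signal was 40.8 to 42.2 in control and 193 to 214 in LPS. Of the epithelial markers 5 of 6 were detected nowhere and 1 on all LPS arrays, with sums of 10.8 to 15.7 and 63.7 to 76.7. Of the neural markers 2 of 3, miR-124-3p and miR-9-5p, were detected nowhere and 1, miR-128-3p, on all 6 arrays, with sums of 38.5 to 46.5 and 609 to 711. None of 5 muscle and mesenchymal markers was detected, with sums of 12.6 to 14.1 and 3.48 to 7.10. Their part in the results was not tested. The 6 arrays lay on 1 slide and had 1 scan time, LPS 2 and LPS 3 in the second row and the others in the first. For the lower signal of detected miRNAs on the control arrays, fewer exosomes and less miRNA per exosome cannot be told apart. The part of the smaller spot fraction used was not tested. The spiked-in RNAs had a geometric mean of 2707 on the control and 2377 on the LPS arrays. Other sources of that difference were not tested.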

How the data were processed

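The intensity values deposited by the authors are the output of Agilent Feature Extraction 10.7.1.1 per the file headers, background-subtracted within each array; the submitters' processing notes name version 9.1. A table of log2 values deposited by the authors served as an alternative. Its normalization and centring are not stated in the labels or headers. Column medians were 2.73 to 2.74, and across detected miRNAs r with the log2 signal was 0.903 to 0.972 per array, so higher values are higher signals. Signal was averaged over the spots of a probe without outlier spots, the brightest probe represented a miRNA, and arrays were scaled to the 75th percentile over miRNAs detected on all 6. The floor was 9.89 (3.31 in log2), the lowest scaled value of a detected miRNA on each array, taken as the median of the 6. miRNAs detected on all arrays of at least 1 group, 412, were fitted with limma 3.58.1 in R 4.3.3, with a threshold of 0.05 after Benjamini-Hochberg adjustment. The fit was tested on simulated data, which does not test the scaling of the arrays. The members and lists were chosen with earlier results of these data known. Named members are those detected on all arrays of a group and the 5 brightest in each group, with their 5p arms; other names were chosen after their values were seen. No replicates held identical values. Gene names and hairpin hosts are from RefSeq (GRCm38.p6), with no coordinates printed. Alternatives covered scaling, background, probes, filters, floors, variance, blocks and leaving out each replicate.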

Additional observations from a re-analysis of the deposited data

How the results depend on the processing

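miR-6948-3p was higher in LPS under all 26 alternatives in which it was fitted. Changes ran from 0.37 (quantile normalization, adjusted p = 0.0109 by limma and Benjamini-Hochberg) to 3.26 (spiked-in RNAs). The fit within slide row 1 and the slide row block rest on 1 LPS array, assumed to vary like the other arrays. Changes of floor, filter and variance model and the replicate block leave the miR-6948-3p estimate at 0.85 by construction. Those settings could change only its error. Its other probe gave 1.13 after scaling, with no test. Leaving out each replicate gave 0.79 to 0.87 (largest adjusted p = 0.000778), with 1 member called higher and 0 lower each time. With the replicate block the change was 0.85 (adjusted p = 0.00092 by limma and Benjamini-Hochberg) and the counts were 1 and 0. Deviations of same-numbered samples correlated at r = −0.40, −0.22 and −0.28, and those of differently numbered samples at −0.32 to 0.43. Deviations from a mean of 3 samples are tied to one another, so these values cannot show whether the samples were paired. With the slide row as a block, where the contrast comes from LPS 1 alone, the change was 0.80. The count of detected members differed by 0 between groups with either detection call and without any replicate. The difference in share of detected signal, 0.298 percentage points, was 0.296 with well above background as detection, 0.182 with the gene total signal, and 0.264 to 0.322 without single replicates.

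The counts of called members depended on the filter. With no filter 11 of the 198 undetected members (5.56%) were called lower, where 14.3% of all 1881 miRNAs were called lower (27.9% in both directions). None of the 11 was detected on any array. At that scaling 25 to 53 undetected members exceeded the floor on the control arrays and 0 on the LPS arrays, where background is divided by a larger factor. With the value table and no filter, chosen after seeing the data, 10 members were called higher and 48 lower. Of all miRNAs 23.6% were called higher and 28.4% lower there (52% in all). The median over members was −0.0352 against 0.85 for the 1 member tested in the report. The number of arrays limits the precision, and no change in the 198 undetected members could be read at this signal.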

Other observations

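The value table gives changes for members whose scanner signal is background. Its lowest change among the 198 undetected members was −1.24 for miR-7061-3p (values of 4.99, 3.92 and 3.89 in control and 2.97, 3.06 and 3.03 in LPS; adjusted p = 0.0248 by limma and Benjamini-Hochberg). The processed signal of this miRNA was 15.6 ± 1.77 and 14.97 ± 3.06 in the same groups (SD, n = 3). miR-7092-3p was at −0.95 there (adjusted p = 0.00513 by limma and Benjamini-Hochberg).

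At the other end of the same table stood miR-7028-3p, singled out after its values were seen. It was at 0.22 (adjusted p = 4.96e-05 by limma and Benjamini-Hochberg), with a processed signal of −8.08, −9.69 and −8.12 in control and 6.02, 3.93 and 3.16 in LPS. The groups do not overlap, the member was detected on no array, and no fold change is given.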
